A study of Mus musculus with 7 samples.

Results

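CTCF and the cohesin subunit Rad21 shared 1653 strong binding sites in female mouse liver that lay over 50 kb from the start of any annotated transcript. They were taken from 67010 autosomal CTCF peaks, of which 13393 had a fold enrichment of 15 or more and 10493 of these also overlapped a Rad21 peak of fold enrichment 10 or more by at least 1 bp. The 10493 are called strong shared peaks. The 1653 far from starts are called distal strong peaks, and the 8840 within 50 kb are called proximal strong peaks. The distal strong peaks overlapped 1653 distinct Rad21 peaks. They were thus chosen by measured fold enrichment in both lists and by distance, so these values describe the set and are not results about it.

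The study profiled livers of male and female mice to find sites where CTCF and cohesin binding differs between the sexes, and the lists analysed here came from females. The mice were outbred Crl:CD1(ICR) animals aged 8 weeks, with no treatment given in the labels, and there were 4 CTCF libraries and 3 Rad21 libraries. Nuclei were isolated from whole liver before crosslinking, so the peaks are averages over the cell types of the tissue. The authors pooled the libraries of each antibody before peak calling, so the lists used here hold no value for a single mouse, and every interval and p-value below covers counting error over peaks and not the spread between mice.

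CTCF is a zinc finger protein that binds a long, directional DNA motif. Cohesin is a ring-shaped complex, of which Rad21 is the closing subunit, and it is thought to extrude DNA into loops until it meets CTCF bound in the blocking direction. Sites bound by both are known as cohesin-and-CTCF (CAC) sites and occur at the anchors of loops and of many domain borders, often as pairs whose motifs point toward each other. Cohesin-non-CTCF (CNC) sites are bound by cohesin without CTCF and are found at many enhancers and promoters. Here a CNC site is a Rad21 peak that overlaps no peak of the pooled CTCF list. The study instead sorted its sex-differential cohesin peaks by overlap with the CTCF peaks of individual replicates.

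The sequences below are those of the strongest distal peaks that are printed here, the peak farthest from a start and the peak with the best motif. They show how much the motif varied among these sites, whose CTCF fold enrichments ran from 16.9 to 33.5. Each run holds 60 bases of the mm9 reference genome, written 5′ to 3′ along the strand named, with the 20 bases of the called CTCF motif in capitals. A gene named with a run is the protein-coding gene whose start is nearest, or the host gene where an intron is named. The mice were outbred and may differ from the reference at single bases.
Fold rank 1, near B3galnt2, chr13:13981815-13981874, plus strand: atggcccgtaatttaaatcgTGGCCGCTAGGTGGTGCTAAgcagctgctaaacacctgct
Fold rank 3, near Cog6, chr3:52648158-52648217, minus strand: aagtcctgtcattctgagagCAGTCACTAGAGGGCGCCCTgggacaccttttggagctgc
Fold rank 4, near Ier5, chr1:156853820-156853879, minus strand: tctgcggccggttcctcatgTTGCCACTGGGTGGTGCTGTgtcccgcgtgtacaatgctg
Fold rank 5, near Snx19, chr9:30288247-30288306, plus strand: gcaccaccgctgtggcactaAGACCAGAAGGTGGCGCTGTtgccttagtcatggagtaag
Fold rank 6, near Ccdc50, chr16:27457541-27457600, minus strand: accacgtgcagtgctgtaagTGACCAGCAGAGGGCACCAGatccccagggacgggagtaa
Fold rank 8, near Rap2b, chr3:61072737-61072796, plus strand: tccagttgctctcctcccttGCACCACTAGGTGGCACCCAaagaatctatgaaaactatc
Farthest from a start, between Olfm4 and a U1 gene, chr14:81245528-81245587, plus strand: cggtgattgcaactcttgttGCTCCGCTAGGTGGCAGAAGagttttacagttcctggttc
Best motif, near Sash1, chr10:8435645-8435704, minus strand: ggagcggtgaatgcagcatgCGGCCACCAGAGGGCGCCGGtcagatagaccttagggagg

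Among all distal strong peaks CTCF was most enriched, 33.5 times over the local background, at chr13:13981628-13982320, between genes, where Rad21 was enriched 32.7 times. The nearest start was that of B3galnt2, which encodes a glycosyltransferase, 65.05 kb away. The 300 bases around its summit held a second motif match of the same strand, and both are in capitals in the run below, which was chosen for display after its values were seen.
Strongest distal peak, chr13:13981741-13982040, plus strand: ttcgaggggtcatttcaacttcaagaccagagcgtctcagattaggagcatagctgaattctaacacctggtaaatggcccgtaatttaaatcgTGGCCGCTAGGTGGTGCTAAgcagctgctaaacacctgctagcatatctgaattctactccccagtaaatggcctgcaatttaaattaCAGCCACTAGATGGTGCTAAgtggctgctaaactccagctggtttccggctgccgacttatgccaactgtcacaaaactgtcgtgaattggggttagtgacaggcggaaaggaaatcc
The matches scored 17.7 and 17.2 bits, and their centres lay 46.5 bp before and 41.5 bp after the CTCF summit, so the summit fell between them. The Rad21 summit lay 1 bp from the CTCF summit. A pair of matches was uncommon in the set: 33 distal strong peaks (1.996%) held 2 or more matches within 100 bp of the summit, as did 210 proximal strong peaks (2.38%).

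Of the 10 strongest distal peaks, those at ranks 2 and 9 were intronic and the others lay between genes. At rank 3 of CTCF fold enrichment, the peak at chr3:52647913-52648439 had 33.1 for CTCF and 19.6 for Rad21, and the nearest coding start was that of Cog6, a Golgi trafficking gene, 172.9 kb away. The rank 4 peak at chr1:156853629-156854116 had 32.5 and 26.6, respectively. At rank 5, chr9:30287972-30288506 had 31.6 and 27.7 and lay 53.3 kb from Snx19, a sorting nexin gene. The rank 6 peak at chr16:27457364-27457791 had 31.1 and 27.0 and lay in a stretch of 1009 kb without a start. The ranks from 7 to 10 had CTCF fold enrichments from 30.4 to 31.1, and the one at rank 9 was in an intron of Lmo3, a LIM-only transcription cofactor gene. None of the 10 strongest had another CTCF peak within 10 kb.

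The peak at rank 2 had no CTCF motif. It lay in an intron of Mamdc2 at chr19:23431779-23432154, with 33.4 for CTCF and 32.8 for Rad21, the highest Rad21 value of the set, and its summits were 3 bp apart. The best match anywhere in the peak scored 2.05 bits, against a threshold of 13.8 bits, the score that 1% of background windows reached. The next strongest without a motif, at chr17:87970947-87971372 and 64.2 kb from Epcam, an epithelial adhesion gene, had 29.9 for CTCF and 28.3 for Rad21, and its best match scored 5.56 bits. In the last of the 3, at chr12:32976747-32977385 near Pik3cg, a lipid kinase gene, no match lay within 100 bp of the summit, but one of 20.9 bits was centred −113.5 bp from it, toward lower coordinates. The sequences are shown to let these letters be set beside the called motifs above, with the best match within 100 bp of the summit in capitals.
No motif, Mamdc2 intron, chr19:23431859-23431918, minus strand: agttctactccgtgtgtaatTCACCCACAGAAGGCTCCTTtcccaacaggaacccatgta
No motif, near Epcam, chr17:87971092-87971151, minus strand: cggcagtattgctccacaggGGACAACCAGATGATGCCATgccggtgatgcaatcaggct
No motif near the summit, near Pik3cg, chr12:32977029-32977088, minus strand: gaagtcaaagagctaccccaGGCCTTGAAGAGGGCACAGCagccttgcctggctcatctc

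The strength of distal strong peaks varied widely above the minima, but the highest values were among proximal strong peaks. CTCF fold enrichment ran from 15.003 to 33.5, with a median of 20.3 and quartiles of 17.9 and 22.8. Rad21 fold enrichment ran from 10.008 to 32.8, with a median of 17.4 and quartiles of 14.1 and 20.9. The proximal strong peaks had medians of 20.02 and 16.6 and reached 45.1 for CTCF and 33.6 for Rad21. Within the distal set, the fold enrichments of both factors had a Spearman correlation of 0.40 and a Pearson correlation of 0.45 over 1653 peaks, and the rank correlation was 0.39 over the 8840 proximal ones. The peaks share libraries and local backgrounds, so this is a description only. The median −log10 q of the CTCF peaks was 228 in the distal set and 278 in the proximal set.

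The thresholds cut through continuous distributions. The weakest distal CTCF peak had a fold enrichment of 15.003, in an intron of Myst4, and the strongest CTCF peak left out by that limit alone had 14.992 and lay 372.6 kb from the start of Rbfox1. For Rad21 the values on either side were 10.008, near Srbd1, and 9.991, in an intron of Nav2. The nearest of the set to a start lay 50002 bp away, in an intron of Eya4, and the first strong shared peak inside the limit lay 49976 bp from one. The plot of strength by distance shows that no gap in strength separates the 1653 peaks from the 8840.

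**Figure D1:**
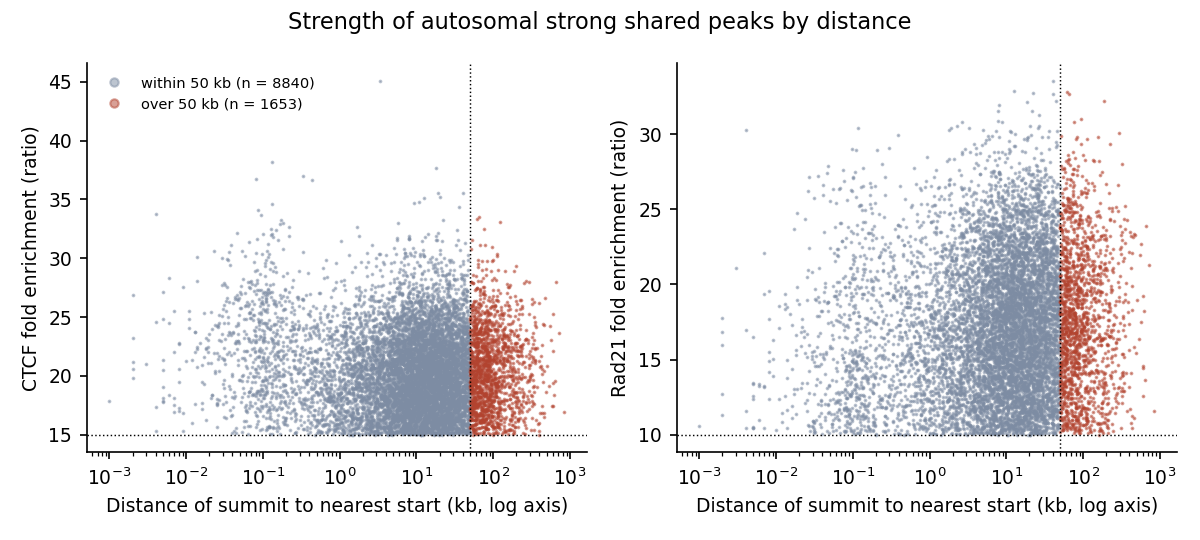
CTCF (left) and Rad21 (right) fold enrichment of the 10493 strong shared peaks against the distance of the CTCF summit to the nearest transcript start, plus 1 bp, on a log axis in kb. Dotted lines are the thresholds that chose the peaks, and the 1653 distal strong peaks (red) cover CTCF values from 15.003 to 33.5, without a break from the proximal ones (grey).

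Peaks became sparse with distance from starts, but the share of CTCF peaks that were strong and shared did not fall in the same way. Autosomal sequence over 50 kb from any start made up 37.8% of the autosomes (903.7 of 2394 Mb), and it held 13.0% of all CTCF peaks and 15.8% of strong shared peaks. There were 1.83 strong shared peaks per Mb in this sequence and 5.93 per Mb nearer to starts. For all CTCF peaks the densities were 9.61 and 39.1 per Mb. Strong shared peaks thinned from 8.89 per Mb within 2.5 kb of a start to 2.88 per Mb at 50 to 100 kb, 1.49 at 100 to 200 kb, 0.842 at 200 to 500 kb and 0.323 beyond 500 kb. The strong shared share of CTCF peaks was 9.33% within 2.5 kb (95% Wilson interval 8.95 to 9.73%). It was already 17.2% at 2.5 to 10 kb (16.6 to 17.8%) and 19.4% at 10 to 50 kb (18.9 to 19.9%). Farther out it was 20.1% at 50 to 100 kb (19.0 to 21.2%), 17.4% at 100 to 200 kb (15.9 to 18.9%) and 18.3% at 200 to 500 kb (16.0 to 20.9%). The low share was thus that of the class nearest to starts. Beyond 500 kb it was 15.6%, with an interval from 9.50 to 24.4% over 90 CTCF peaks. Both quantities follow from the rule that chose the peaks, and no test was made.

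**Figure D2:**
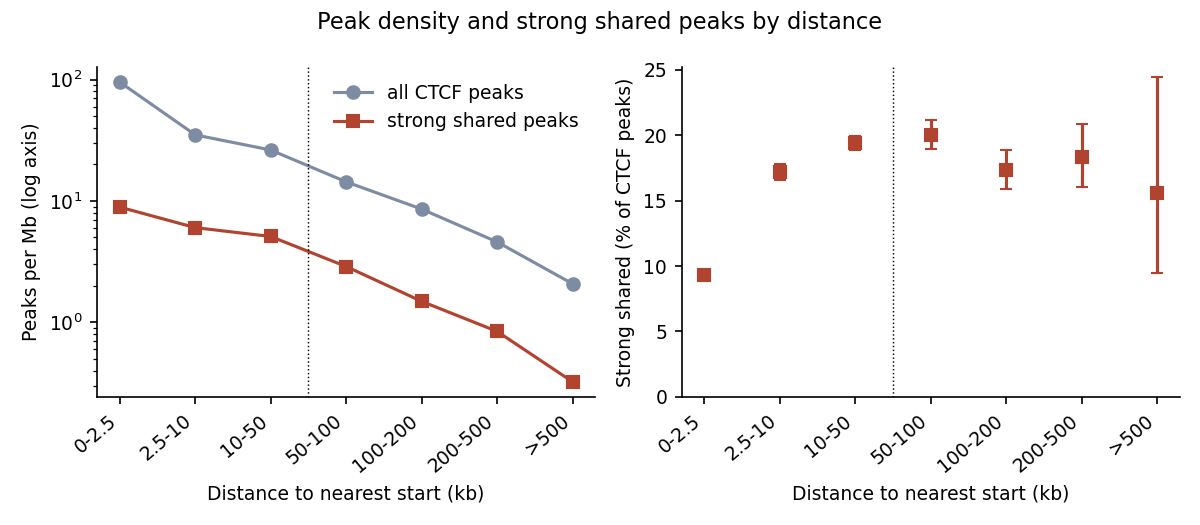
Density of all autosomal CTCF peaks and of strong shared peaks in peaks per Mb of sequence (left, log axis), and the percent of CTCF peaks that were strong and shared (right, bars are 95% Wilson intervals), by distance of the summit to the nearest start in kb. Classes right of the dotted line hold the distal strong peaks, whose density fell to 0.323 per Mb beyond 500 kb while their share of CTCF peaks lay between 15.6 and 20.1%.

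The median distal strong peak lay 84041 bp from a start, 625 lay over 100 kb away, 194 over 200 kb and 14 over 500 kb. The farthest, at chr14:81245205-81245777, was 845.4 kb from the start of Olfm4, which encodes a secreted glycoprotein of the gut epithelium. Its CTCF fold enrichment was 16.9 and its Rad21 fold enrichment was 11.6, both below the first quartiles of the set. The next was stronger, with 23.6 and 21.3, and lay in an intron of the glypican gene Gpc5 on chromosome 14, 718.2 kb from the start of its relative Gpc6. The third had 28.0 and 23.9 and lay 663.7 kb from Cdh18, a cadherin gene. Great distance thus occurred with both weak and strong enrichment.

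Every autosome held distal strong peaks. Per Mb of sequence over 50 kb from starts, chromosome 19 had most (54 peaks, 2.85 per Mb), followed by chromosome 9 (105 peaks, 2.48 per Mb), and chromosome 14 had fewest (76 peaks, 1.39 per Mb). The median CTCF fold enrichment per chromosome lay between 19.6 and 21.3. Of 5428 stretches of over 100 kb between neighbouring starts, 1191 (21.9%) held a distal strong peak. The share was 13.0% for stretches of 100 to 200 kb, 30.6% for 200 to 500 kb, 43.4% for 500 to 1000 kb and 32.6% for longer ones, so that most of the longest stretches held none. With the stretches between a chromosome's first start and its end included, 1193 held a distal strong peak, of which 849 held 1 such peak, 344 held 2 or more, and no stretch held more than 6.

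The longest start-free stretch with a distal strong peak spanned 2384 kb on chromosome 14, from Olfm4 to a U1 gene. It held only 3 CTCF peaks, of which 2 were distal strong peaks, with CTCF fold enrichments of 16.9 and 17.8. A stretch of 2183 kb on chromosome 3 held 7 CTCF peaks, 2 of them distal strong peaks of 19.6 and 22.4. Another, of 2132 kb on chromosome 10, held 6 CTCF peaks and a single distal strong peak of 26.2.

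Clusters of distal strong peaks were small. The median gap between successive ones was 689 kb, 232 of 1634 gaps were 50 kb or less, and 42 were 10 kb or less. No window of 100 kb held more than 4, and 6 windows reached this number. The one with the highest summed enrichment lay on chromosome 10 upstream of Dcn, which encodes the matrix proteoglycan decorin. Its 4 peaks spanned 62.8 kb and lay 166.4, 139.5, 134.1 and 103.6 kb from the Dcn start. Their CTCF fold enrichments were 23.1, 18.01, 23.7 and 25.1, and their Rad21 fold enrichments were 20.02, 12.2, 20.3 and 18.8. Of these, the peaks at 139.5 and 103.6 kb had best matches of 13.3 bits each, just under the motif threshold. The 4 sequences were chosen for display after their values were seen, to show neighbours with called and uncalled motifs, with the best match of each in capitals.
Upstream of Dcn, 166.4 kb away, motif called, chr10:96775748-96775807, minus strand: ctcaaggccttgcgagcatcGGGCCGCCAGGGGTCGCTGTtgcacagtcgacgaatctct
Upstream of Dcn, 139.5 kb away, under the threshold, chr10:96802674-96802733, minus strand: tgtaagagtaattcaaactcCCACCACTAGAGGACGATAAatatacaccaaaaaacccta
Upstream of Dcn, 134.1 kb away, motif called, chr10:96808139-96808198, plus strand: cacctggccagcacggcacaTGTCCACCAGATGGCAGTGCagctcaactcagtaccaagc
Upstream of Dcn, 103.6 kb away, under the threshold, chr10:96838597-96838656, plus strand: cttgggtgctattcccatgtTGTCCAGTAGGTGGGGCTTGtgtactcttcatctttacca

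Most distal strong peaks lay between genes and most of the others in introns of long genes. Of the 1653, 1141 (69.0%) were intergenic, 489 (29.6%) intronic and 23 (1.39%) in an exon, while the proximal shares were 52.4, 39.9 and 7.69%. This was not tested, since distance from starts, which chose the peaks, is tied to these classes. The nearest start belonged to a protein-coding gene for 1115 peaks (67.5%), to a small nuclear RNA gene for 111, to a pseudogene for 100, to a small nucleolar RNA gene for 80, to a microRNA gene for 62 and to a long intergenic noncoding RNA gene for 58. Many of the small RNA entries are copies spread through the genome, such as the U6 entry nearest to the peak of rank 2.

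In all, 392 genes held a distal strong peak. The 385 protein-coding ones among them had a median length of 269 kb, against 15.5 kb for all 21418 autosomal protein-coding genes of the annotation, and a gene must be long for its inside to lie over 50 kb from any start. Of the 2281 protein-coding genes over 100 kb long, 347 (15.2%) held one. Dscam, a neural cell adhesion gene, held 5 in its 579 kb, and Trpm3, a cation channel gene, held 5 in 851 kb. Cacna2d3, which encodes an auxiliary subunit of calcium channels, held 4 in 817 kb. There were 15 genes with 3 each, among them the kinase gene Itpkb, the transcription factor genes Klf12 and Zfp536, the potassium channel gene Kcnq3, the adhesion gene Cadm1 and the myosin gene Myo16. The gene model with most was Gm20388, with 8, whose annotated span of 4435 kb runs across many other genes.

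Long, mostly neural genes and liver genes were counted as lists. Of 62 annotated genes in a list of long genes, most but not all of neural adhesion and synapses, whose median length was 912 kb, 21 held a distal strong peak (33.9%, 23.3 to 46.3%). Among those over 100 kb long it was 21 of 59 (35.6%), beside the 15.2% of all protein-coding genes of that length. The listed genes were also longer than 100 kb by a wide margin, and no test was made. An example was Cntnap2, a neurexin-like adhesion gene, with 1 peak of CTCF fold enrichment 21.3 and Rad21 fold enrichment 21.3. Robo1, which encodes an axon guidance receptor, held 2, with CTCF values of 17.7 and 17.9. Ctnna2, a catenin gene, held 2 of 21.3 and 21.4. Wwox held most, 3 peaks from 19.8 to 21.4, and encodes an oxidoreductase. Park2, which held 2, encodes the ubiquitin ligase parkin, and Galntl6, which held 2, encodes a glycosyltransferase-like protein. None of these last 3 is an adhesion or synapse gene by that role, nor is Immp2l, a mitochondrial peptidase gene that was listed and held none, and the counts include them. Of 62 annotated hepatocyte genes, with a median length of 18.2 kb, 0 held one (upper Wilson bound 5.83%), beside 1.81% of all 21281 autosomal protein-coding genes matched by symbol. Only 4 of these hepatocyte genes were over 100 kb long, so the 0 is close to that background. The lists hold no expression values, and nothing about the activity of these genes was measured.

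Nearest to most distal strong peaks was the start of Arrdc4, an arrestin-domain gene, with 6. With 4 each followed Ank3, which encodes ankyrin-G, Dcn, Fam92b, Gm9869, the immune gene Ly86, the transcription factor gene Olig3 and the secreted kinase gene Pkdcc. Of the 1322 genes that were nearest to any, 263 were nearest to 2 or more. Proximity to a start does not show which gene, if any, a site acts on.

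Most distal strong peaks held the CTCF motif. On even-numbered autosomes, which were not used to learn the motif, 648 of 758 distal strong peaks had one (85.5%, 82.8 to 87.8%), beside 45.2% of all CTCF peaks there. Proximal strong peaks had one in 3398 of 4026 (84.4%), and the difference of 1.09 points did not pass Fisher's exact test (p = 0.476, adjusted p = 0.582, Benjamini-Hochberg over 11 tests). With motifs sought within 50 bp of the summit it was 2.93 points and passed the exact test (adjusted p = 0.0364), while its sign turned, without passing, in 3 other alternatives. The median score of the motif was 18.9 bits in distal and 19.0 bits in proximal strong peaks (Fisher's exact test on shares above the common median, adjusted p = 0.764). The highest score, 27.4 bits, belonged to the peak near Sash1 shown above, whose CTCF fold enrichment of 22.7 was far below the highest. With the distal set cut into 4 groups by CTCF fold enrichment, the group of lowest values had the motif in 144 of its 188 peaks on even-numbered autosomes (76.6%, 70.05 to 82.1%), and the next 3 groups of rising fold enrichment had it in 88.1, 87.1 and 89.9%.

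Over all autosomes 1387 distal strong peaks had a called motif, 697 on the plus strand and 690 on the minus strand, and these were 1370 distinct runs of 20 bases. The consensus of the matches read 5′ to 3′ was NNGCCACNAGGGGGCACNNN, where N marks places without a base in majority. Some printed letters had a bare majority, such as G at base 3 (50.3%). Counted from 1 at the 5′ end, base 10 was G in 100% of matches, base 5 was C in 99.7% and base 13 was G in 99.6%, while base 11 was G in 51.8%. At base 16, A had 51.2% in distal matches and 47.9% in proximal ones. The commonest match among all strong shared peaks was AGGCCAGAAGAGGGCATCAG, in 4 distal and 32 proximal peaks, a run of letters known from rodent B2 repeats. Distal matches within 3 mismatches of it were 60 (4.33%, 3.38 to 5.53%), and proximal ones were 363 (4.87%, 4.40 to 5.38%).

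The motif of a distal strong peak held a CpG, the dinucleotide whose methylation can block CTCF, in 659 of 1387 cases (47.5%, 44.9 to 50.1%), beside 42.9% of all autosomal CTCF peaks with a motif. In proximal strong peaks it was 49.7%, and the difference did not pass Fisher's exact test (adjusted p = 0.198). By the same exact test it passed, lower in the distal set, when the distance limit was 25 kb (adjusted p = 0.000409), and its sign turned against peaks 10 to 50 kb from a start alone, where it was 2.01 points higher (adjusted p = 0.323). The CpG at bases 15 and 16 was the commonest, in 35.3% of distal matches. No methylation was measured.

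Of the 1653 distal strong peaks, 266 (16.1%) had no called motif within 100 bp of the summit. In 207 of these the best match passed a looser threshold of 9.19 bits, reached by 5% of background windows. A match elsewhere in the peak passed the stricter threshold in 6, and in 16 the best match scored under 5 bits. Peaks with a best match under 5 bits, such as the one in Mamdc2, were thus few, but no background rate was computed for that score. All peaks not among the 207, such as the one near Epcam, were below even the looser threshold.

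Rad21 sat on one side of the CTCF motif. With the motif read 5′ to 3′, the Rad21 summit of distal strong peaks lay a median of 17.5 bp beyond the motif centre, on the 3′ side (quartiles −0.5 and 26.5 bp), and the CTCF summit lay at −8.5 bp, on the 5′ side. Where both summits differed, that of Rad21 was on the 3′ side of the motif centre in 1023 of 1368 peaks (74.8%, 72.4 to 77.0%), beside 68.3% of all autosomal CTCF peaks with a motif and a Rad21 overlap. In proximal strong peaks it was 72.5%, and the difference did not pass Fisher's exact test (adjusted p = 0.134). It passed the exact test when only starts of protein-coding genes counted (3.44 points, adjusted p = 0.00405). In 8 of 11 alternatives it did not pass. Among these it was 0.608 points with a distance over 100 kb and 1.07 points against peaks 10 to 50 kb from a start. In 4 groups of the distal set of rising CTCF fold enrichment, the share was 76.4, 76.6, 74.4 and 72.1%. CTCF and Rad21 summits of a distal strong peak were a median of 21 bp apart, and of a proximal one 22 bp (Fisher's exact test, adjusted p = 0.692).

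**Figure D3:**
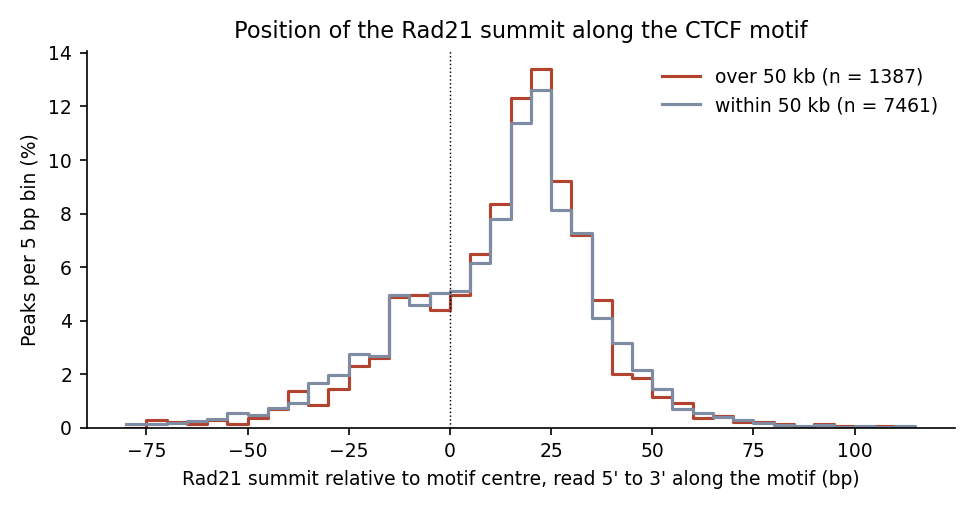
Position of the Rad21 summit relative to the centre of the CTCF motif in bp, read 5′ to 3′ along the motif, as the percent of peaks per bin of 5 bp, for distal (red, n = 1387) and proximal (grey, n = 7461) strong peaks. Both lines peak to the right of the motif centre, with medians of 17.5 and 16.5 bp.

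Distal strong peaks stood more alone. Another CTCF peak lay within 10 kb of 521 (31.5%, 29.3 to 33.8%), beside 66.5% of all autosomal CTCF peaks and 4630 of 8840 proximal strong peaks (52.4%, 51.3 to 53.4%). This difference of −20.9 points passed Fisher's exact test (adjusted p = 6.71e-55). It was −13.3 points against proximal strong peaks 10 to 50 kb from a start, and −5.28 points when only other CTCF peaks of fold enrichment 15 or more were counted, and both passed the exact test (adjusted p = 2.48e-20 and 4.00e-10). The median distance to the nearest other CTCF summit was 18207 bp in the distal set and 9533 bp in the proximal set. A single other CTCF peak lay within 10 kb of 411 distal strong peaks, and 2 or more lay near 110. Of the 414 distal strong peaks of highest CTCF fold enrichment 24.4% had such a neighbour, and of the 413 of lowest 36.6%. CTCF peaks of any kind were sparser far from starts, as the densities above show, and their part in this difference was not tested.

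CNC sites were also rarer beside them. A Rad21 peak without CTCF lay within 10 kb of 147 distal strong peaks (8.89%, 7.61 to 10.4%), beside 26.1% of all autosomal CTCF peaks. The proximal share was 13.5% (1192 of 8840, 12.8 to 14.2%), and the difference passed Fisher's exact test (adjusted p = 1.97e-07). The difference of −4.59 points shrank to −2.72 against proximal strong peaks 10 to 50 kb from a start and to −2.66 with a Rad21 fold enrichment of at least 15. The median distance to the nearest CNC summit was 84398 bp for distal and 42358.5 bp for proximal strong peaks.

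**Figure D4:**
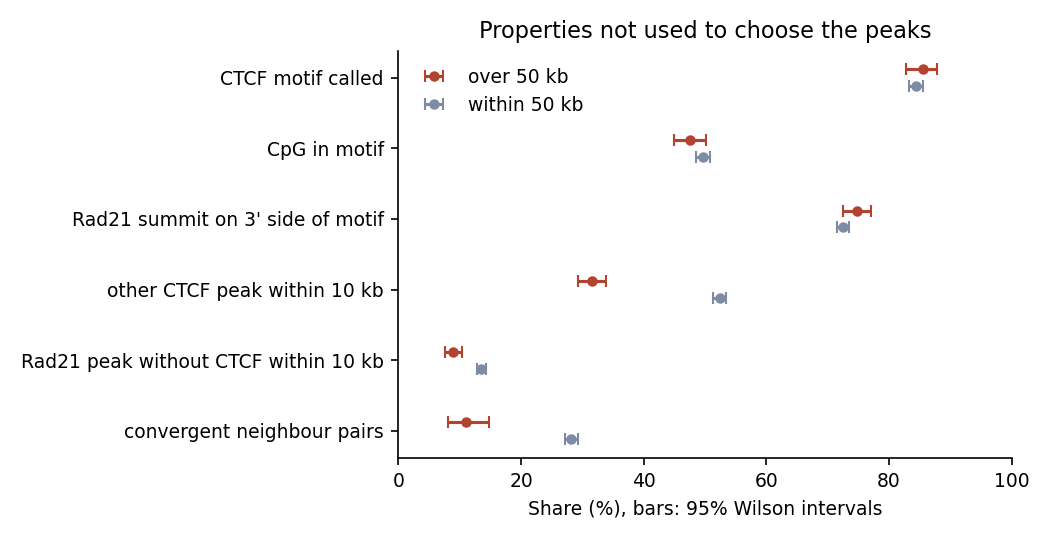
Share in percent, with 95% Wilson intervals, of distal (red) and proximal (grey) strong peaks that had each of 6 properties not used to choose them. For pairs, grey is all other pairs of successive strong shared peaks, which include pairs of a distal and a proximal peak. The upper 3 shares overlap between groups, while a CTCF neighbour (31.5 against 52.4%) and a CNC neighbour (8.89 against 13.5%) were rarer in the distal set. Of distal pairs 10.98% were convergent, against 28.2% of all other pairs. Distal pairs lack a start between them by construction, and against other pairs without a start (11.97%) the last difference did not pass the test.

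The sequence around distal strong peaks was poorer in G and C. Within 100 bp of the summit the median GC content was 47.8% (quartiles 43.8 and 52.2%), against 50.2% in proximal strong peaks (Fisher's exact test on shares above the common median, adjusted p = 1.49e-31), and the difference shrank from −2.49 to −1.49 points against those 10 to 50 kb from a start. Over the surrounding 20 kb it was 43.1% against 45.9%, with 24.9% of distal and 54.7% of proximal strong peaks above the common median (Fisher's exact test, adjusted p = 1.53e-112). Distal strong peaks were also narrower, with a median of 488 bp against 504 bp (Fisher's exact test, adjusted p = 1.11e-15). The difference was −10 bp against proximal strong peaks 10 to 50 kb from a start. Either gap is small beside the quartiles of the distal set, 453 and 530 bp.

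Where distal strong peaks followed each other without a start between them, their motifs rarely pointed toward each other. Of 328 such neighbouring pairs with called motifs, 36 were convergent (10.98%, 8.03 to 14.8%), 177 were tandem, both in the same direction (54.0%), and 115 were divergent, pointing apart (35.1%). Of all 7142 other pairs of successive strong shared peaks 2012 were convergent (28.2%), and the difference passed Fisher's exact test (adjusted p = 3.37e-13). The distal pairs lack a start between them by construction, and most other pairs have one. Against the 1195 other pairs that also lack a start, of which 143 were convergent (11.97%, 10.2 to 13.9%), the difference was −0.991 points and did not pass Fisher's exact test (adjusted p = 0.764). Other pairs with a start between them were convergent in 31.4% of 5947 cases. A share particular to the distal peaks is thus not shown.

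**Figure D5:**
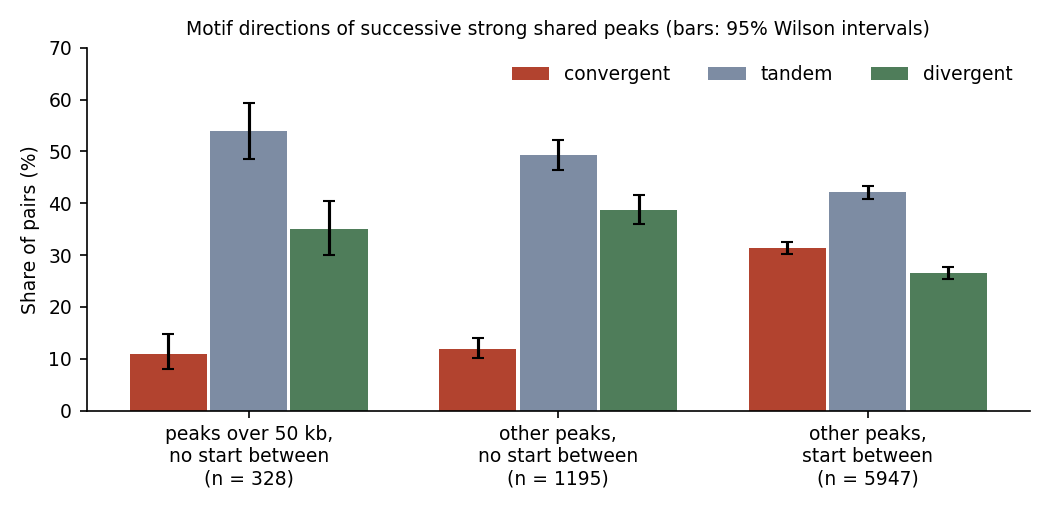
Share in percent of convergent, tandem and divergent motif directions among pairs of successive strong shared peaks, with 95% Wilson intervals, for distal pairs (n = 328), other pairs without a start between them (n = 1195) and other pairs with one (n = 5947). Convergent pairs made up 10.98, 11.97 and 31.4%.

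The gap between neighbours moved with their directions too. Distal pairs up to 50 kb apart were convergent in 7.10% of 169 cases (4.108 to 11.9999%), those 50 to 200 kb apart in 12.9% of 124 (8.10 to 19.9%), and those over 200 kb apart in 22.9% of 35 (12.1 to 39.0%). Divergent pairs went the other way, from 40.8% to 32.3% and 17.1%. Other pairs without a start were convergent in 10.2, 17.2 and 24.3% of cases in the same classes, and pairs with a start in 25.3, 31.7 and 34.9%. Gaps were shorter without a start between, with medians of 48.0 kb for distal pairs, 21.3 kb for other pairs without a start and 123.7 kb for those with one, and the part of gap length in the difference was not tested apart from these classes.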

How the data were processed

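Livers of female CD-1 mice gave 4 CTCF and 3 Rad21 ChIP-seq libraries. Alignment by the authors used Bowtie2 and mm9, and reads with more than 1 place were discarded. MACS2 peaks were called on each antibody's pool, and blacklisted peaks and those built of identical reads alone were taken out. For each peak the deposited lists give the fold enrichment over the local background (a ratio), −log10 p and q values, a score made from q, and the summit. Per-library depth was not used here, so depth behind a single peak is unknown. MACS2 fold and width depend on the local background and on the pooled depth.

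Members and gene lists were chosen with earlier results of these data known. Distances were taken from summits to GENCODE transcript starts of the same build, and genome sequence was read with pysam 0.24.0 and samtools 1.23.1. Overlaps were checked with bedtools 2.31.1, with 0 disagreements. A matrix of 20 positions was learned from the 1000 strongest CTCF peaks on odd-numbered autosomes, within 50 bp of the summit, of which 940 entered the final matrix. The 1000 included 140 distal strong peaks. It was scored on both strands within 100 bp of summits and called at the score reached by 1% of background windows. Distal and proximal strong peaks were compared by two-sided Fisher's exact tests, for medians on the share above the common median, in scipy 1.17.1, with Benjamini-Hochberg adjustment over 11 tests at a threshold of 0.05 and Wilson intervals at 95%. Scripts were tested on simulated data. Peaks were named by fixed rules of rank (10 highest CTCF fold enrichments, highest Rad21, 3 farthest, best motif, 3 strongest without a motif, threshold neighbours, densest 100 kb window, 3 longest stretches), and genes by number of peaks held or nearest, up to 10, or by list. Alternatives varied distance, starts counted, fold minima, overlap, comparison peaks and motif calls. Some genes of the lists are not reported here.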

Additional observations from a re-analysis of the deposited data

Results flagged for a closer look

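The X chromosome lies outside the autosomes from which the distal strong peaks were taken. It held 30 peaks that met the same limits of fold enrichment and distance, among 1650 CTCF peaks and 235 strong shared peaks, and was noted because these peaks appear in data that no comparison above used. They made up 12.8% of its strong shared peaks (95% Wilson interval 9.09 to 17.6%), against 15.8% on the autosomes (15.1 to 16.5%), and the difference was not tested. There are no control samples in the lists, so the peak caller's own background is the only reference.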

How the results depend on the processing

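The number of distal strong peaks followed the limits that define it. It was 3263 with a distance over 25 kb, 625 over 100 kb, 870 with a CTCF fold enrichment of at least 20 and 783 with values of 15 to 20. With only starts of protein-coding genes counted it was 2348, and with a Rad21 fold enrichment of at least 15 it was 1137. Under either stricter overlap setting it was 1649.

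The lower shares of CTCF and CNC neighbours, the lower GC contents and the narrower peaks kept their direction and passed the test under every alternative run, but several were smaller against proximal strong peaks 10 to 50 kb from a start (CTCF neighbours −13.3 points, CNC neighbours −2.72 points, GC around the summit −1.49 points, width −10 bp). With only CTCF peaks of fold 15 or more counted, an alternative chosen after seeing the data, the CTCF neighbour difference was −5.28 points.

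Differences in percentage points, distal minus proximal, changed for other measures. CpG in the motif passed the test at 25 kb (−4.20), with protein-coding starts only (−3.73) and at a 5% motif threshold (−3.50), and turned to 2.01, without passing, against peaks 10 to 50 kb from a start. Rad21 on the 3′ side passed at 25 kb (2.74), with protein-coding starts (3.44) and at the 5% threshold (2.90). It did not pass in 8 of 11 alternatives. Among these were distance over 100 kb (0.608), peaks 10 to 50 kb from a start (1.07) and CTCF fold 15 to 20 (1.33). The motif share turned to −0.889 against peaks at 10 to 50 kb, −1.71 at CTCF fold 15 to 20 and, in a test on all autosomes chosen after seeing the data, −0.492, none of which passed, and it passed at 2.93 with motifs within 50 bp. The median motif score turned to differences of 0.229 bits (CTCF fold 15 to 20), 0.0922 bits (5% threshold) and 0.0201 bits (50 bp), and the summit distance to 1 bp at 25 kb and 1 bp at CTCF fold 15 to 20, none passing. The motif score on all autosomes, also chosen after seeing the data, kept its direction and did not pass. Convergent neighbours, as distal minus other pairs, lost the call against pairs without a start, a comparison chosen after seeing the data (−0.991). The cause of these changes was not tested.

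No paired analysis was possible because the lists are pooled and carry no replicate columns, and for the same reason leaving out a library was not run. The motif search in repeat-masked sequence was not run, since the genome used here has no masking. The spread between mice was not measured here, so the intervals and p-values, which cover counting error over peaks only, leave it out.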

Other observations

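The motif direction of distal strong peaks was set beside the position of the nearest start, after the pairs had been seen. It pointed to the nearest start in 648 of 1385 peaks (46.8%, 95% Wilson interval 44.2 to 49.4%), and in 48.9% of 7457 proximal strong peaks (47.8 to 50.03%). In start-free stretches with at least 2 distal motifs, the outermost motifs pointed out of the stretch in 341 of 520 cases (65.6%, 61.4 to 69.5%). These are largely the same peaks as the neighbouring pairs described above and give no independent support to them.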
